A study of Danio rerio with 15 samples.

Results

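This comparison sets zebrafish larvae exposed to tefluthrin at 60 nM against larvae exposed to acetochlor at 780 nM, the lower concentration of each pesticide in the series. Its members are 6 of the 15 libraries of the study, 3 per compound, chosen by their treatment labels and by no measured value. All larvae were wild-type NHGRI-1, a laboratory zebrafish strain, and each library came from a pool of whole larvae collected at 72 h post fertilisation. The exposed larvae had been kept in the compound from 48 h onward, after hatching. The remaining 9 libraries, 3 per group, came from larvae at tefluthrin 2.3 µM, at acetochlor 7.8 µM and from untreated controls. The solvent and the number of larvae per pool are not given in the sources used here. The column headers give the unit of the higher tefluthrin group as nM, where titles, treatment labels and design text give µM. The labels are followed here, and if the headers were right that group would be the lower tefluthrin concentration. The fold changes between the low groups set no control library on either side. However, all 15 libraries entered the filter on low counts, the scaling and the estimate of the spread that decides which transcripts pass the test.

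Tefluthrin belongs to the pyrethroids, which act on the voltage-gated sodium channels of nerve and muscle: the channel closes late after it has opened, and the cell fires repeatedly. Acetochlor belongs to the chloroacetanilides, which in plants block the elongation of very-long-chain fatty acids and so stop seedlings from growing. Larvae of this age have a working nervous system, trunk muscle, heart and liver and still live on yolk. RNA from a whole larva mixes all of these tissues, so fewer cells of a type and less RNA per cell cannot be told apart. The molar concentrations of the compounds differ, so what follows compares 2 exposures and not 2 compounds at 1 dose.

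The values are estimated read counts per Ensembl transcript, with no gene attached. Of the 64995 identifiers, 0 were found in either of the available tables of gene names (a list of gene symbols and RefSeq genes). No gene, pathway or tissue marker could therefore be named. Transcripts are called by their identifier, with at most 2 given per direction, and no position, exon or sequence is shown. The tissue label was not checked against markers for the same reason.

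Tefluthrin 60 nM libraries held 17354405 to 18743266 counts, and acetochlor 780 nM libraries 19948625 to 25191374. Values are given as CPM, counts scaled to a common library size, on which 3 counts (the upper limit for a count of 0) were worth 0.123 to 0.167 CPM. Replicates were closer to each other at tefluthrin 60 nM than at acetochlor 780 nM. Among transcripts with whole-number estimates and a mean count of 100 to 1000, the median coefficient of variation was 7.42% with tefluthrin and 10.9% with acetochlor. The counting error computed from the mean counts was 6.22% and 6.03%. A spread measured on 3 libraries has a median below the true spread, so these figures are not on the same measure. They understate the excess over counting error. Acetochlor replicates II and III were the least alike of the 6 replicate pairs, with a chi-square of 23.6 per degree of freedom, and the other pairs gave 3.47 to 10.9. The median coefficient of variation was 7.77% at tefluthrin 2.3 µM, 8.40% at acetochlor 7.8 µM and 7.61% in control, so acetochlor 780 nM varied most. The test of the low contrast took its spread from all 15 libraries. The labels do not say that replicates came from separate clutches, so p-values measure the spread between pools. They name no batch either, so that a batch or clutch and the exposure cannot be told apart.

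Tefluthrin 60 nM and acetochlor 780 nM larvae differed in the level of 5195 of 35865 transcripts tested (14.5%) by edgeR's quasi-likelihood test, with 0.05 as the threshold on p-values adjusted after Benjamini and Hochberg. Of these, 2717 (7.58% of those tested) were higher in tefluthrin larvae and 2478 (6.91%) were lower. A transcript that passes this threshold is said below to be called. Without an adjustment 9292 transcripts (25.9%) had a p-value under 0.05. When the spread was estimated from these 6 libraries alone, 3115 transcripts were called, 1845 higher and 1270 lower. Which list was longer depended on the scaling. The split was 2548 higher and 2685 lower with upper quartile scaling. It was 2764 and 2410 with DESeq2 size factors, and 2706 and 2380 with library totals alone.

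The differences were small for most transcripts and larger among those that rose. The median log2 fold change of tefluthrin over acetochlor was 0.80 among the called higher transcripts, a 1.75-fold difference, and -0.60 among the called lower ones, a 1.51-fold difference. Over all transcripts tested the median was -0.02. A change of 1 or more in size on the log2 scale was reached by 1024 of the higher transcripts (2.86% of those tested) and 526 of the lower ones (1.47%), together 4.32%. At the upper end, 145 higher and 60 lower transcripts had a fitted log2 change of at least 3 in size. In 44 of the called higher transcripts the acetochlor libraries all held 3 counts or fewer, and in 40 of the called lower ones the tefluthrin libraries did. With these set to the bound that 3 counts per library allow, the large changes numbered 125 higher and 42 lower, and the medians stayed at 0.80 and -0.60. The 3 tefluthrin libraries did not overlap with the 3 acetochlor libraries in 99.3% of called higher and 98.5% of called lower transcripts, against 29.8% of all transcripts tested. The calls were made on these same libraries, so the lack of overlap describes the called transcripts and tests nothing.

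**Figure D1:**
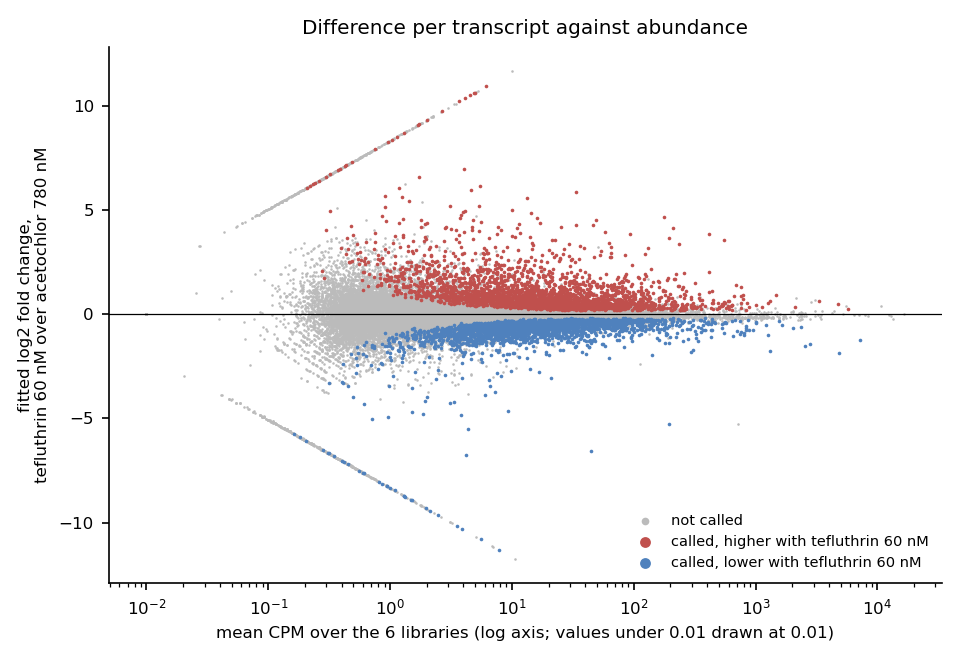
Fitted log2 fold change of tefluthrin 60 nM over acetochlor 780 nM (vertical axis) against the mean CPM of the 6 libraries (horizontal log axis), 1 point per transcript, with called transcripts in colour. The 2717 higher and 2478 lower transcripts spread over the whole range of abundance, and the rays at the edges are transcripts at 0 in all libraries of 1 group, whose fitted fold change is no bound.

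The share of transcripts called grew with abundance. Below 1 CPM, 130 of 7686 transcripts (1.69%) were called, and the median size of their log2 change was 2.68. Between 10 and 30 CPM 23.9% were called, with a median size of 0.56. At 100 CPM and above 459 of 1242 transcripts (37%) were called, 261 higher and 198 lower, and the smallest called change there was 0.16 on the log2 scale. Low transcripts were thus called only when the change was large, and the smallest called change below 1 CPM was 0.90. Transcripts whose estimates were whole numbers in all 6 libraries were called in 20.5% of 8503 cases (905 higher, 840 lower). Those with a fractional estimate were called in 12.6% of 27362. A whole number shows no read divided in the estimate, but not that no read could match another transcript. The whole-number transcripts were more abundant (median 7.11 CPM, against 3.67 CPM), but they were also called more often at like abundance. Their share was 3.18%, against 1.43%, below 1 CPM and 9.58%, against 5.30%, between 1 and 3 CPM. It was 19.6%, against 13.6%, between 3 and 10 CPM and 28.9%, against 21.7%, between 10 and 30 CPM. It was 35.4%, against 31.2%, between 30 and 100 CPM and 37.9%, against 36.6%, above that.

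The transcripts named here were chosen among called ones whose libraries did not overlap between the low groups, so that separation is no result. Of the transcripts that rose, ENSDART00000170934.2 had the smallest p-value of all. It had 185, 188 and 153 CPM in the tefluthrin 60 nM libraries, against 11.6, 11.2 and 12.9 CPM in the acetochlor 780 nM libraries. Every tefluthrin library was more than 10 times as high as any acetochlor library. Its log2 fold change was 3.88 (SE 0.105, edgeR adjusted p = 1.82e-09), a 14.7-fold difference. Measured in other larvae, its level was 178 ± 16.5 CPM at tefluthrin 2.3 µM, 15.4 ± 0.97 CPM at acetochlor 7.8 µM and 11.3 ± 0.508 CPM in control (SD, n = 3 each). It thus had nearly the same level at both tefluthrin concentrations.

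ENSDART00000138955.3 had the largest fold change upward among transcripts with whole-number estimates and at least 10 counts on average in both groups. The tefluthrin 60 nM libraries had 90.7, 106 and 86.2 CPM, and the acetochlor 780 nM libraries 3.6, 2.5 and 5.89 CPM. Groups without overlap were required by the rule, and the acetochlor libraries differed among themselves by more than 2 times. The log2 fold change was 4.56 (SE 0.27, edgeR adjusted p = 5.03e-07). Its level was 106 ± 25.1 CPM at tefluthrin 2.3 µM, 7.38 ± 1.18 CPM at acetochlor 7.8 µM and 4.07 ± 0.411 CPM in control (SD, n = 3 each).

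Of the transcripts that fell, ENSDART00000152299.2 had the smallest p-value. It had 13.2, 13.3 and 13.6 CPM in the tefluthrin 60 nM libraries, against 32.8, 36.7 and 33.1 CPM in the acetochlor 780 nM libraries. The tefluthrin values were tightly grouped and lay far under every acetochlor value. The log2 fold change was -1.35 (SE 0.061, edgeR adjusted p = 6.81e-08). Its level was 16.2 ± 0.489 CPM at tefluthrin 2.3 µM, 32 ± 1.28 CPM at acetochlor 7.8 µM and 32.6 ± 1.1 CPM in control (SD, n = 3 each). In each group 1 library had a fractional estimate, so some reads were shared with other transcripts.

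ENSDART00000129772.3 had the largest fold change downward by the rule for whole-number estimates. The tefluthrin 60 nM libraries had 0.575, 0.666 and 1.03 CPM, or 11, 12 and 19 counts, against 17.5, 5.12 and 10.9 CPM in the acetochlor 780 nM libraries. The acetochlor libraries were far apart, and the rule required the lowest of them to lie over every tefluthrin library. The log2 fold change was -3.87 (SE 0.448, edgeR adjusted p = 8.10e-05). Its level was 1.34 ± 0.317 CPM at tefluthrin 2.3 µM, 4.55 ± 1.73 CPM at acetochlor 7.8 µM and 10.8 ± 1.01 CPM in control (SD, n = 3 each).

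**Figure D2:**
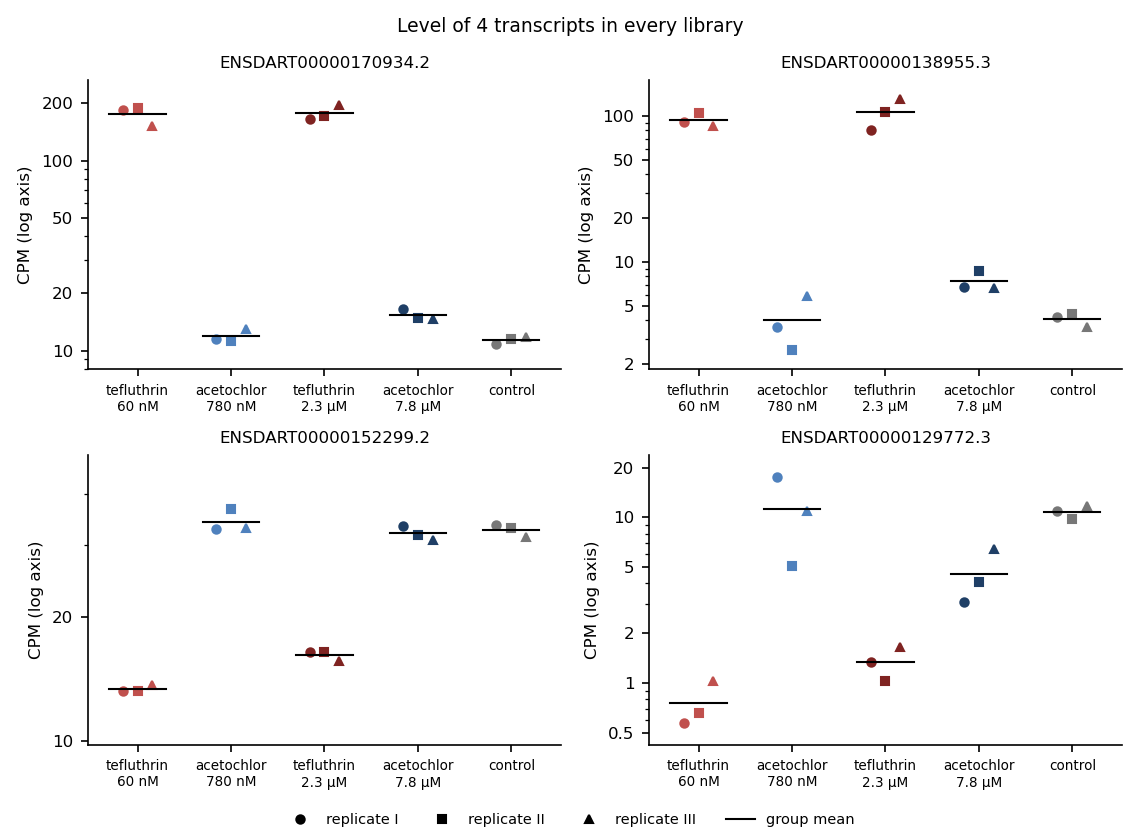
CPM of the 4 transcripts (vertical log axes) in each of the 15 libraries, with 1 marker per replicate and a line at the group mean. The rule that chose the transcripts required the tefluthrin 60 nM libraries to stand apart from the acetochlor 780 nM libraries in each panel. For ENSDART00000170934.2 they had 185, 188 and 153 CPM against 11.6, 11.2 and 12.9 CPM.

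The called transcripts took a sizeable share of all counts, and the balance of the 2 lists differed between groups. The 2717 transcripts higher with tefluthrin took 17.3%, 16.9% and 16.7% of the counts of the tefluthrin 60 nM libraries, against 10.4%, 10.3% and 10.7% at acetochlor 780 nM. The 2478 lower transcripts took 9.19%, 9.85% and 10% at tefluthrin 60 nM, against 15.8%, 15.8% and 15.5% at acetochlor 780 nM. These libraries chose the transcripts, so the shares describe the size of the difference and test nothing.

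The 9 libraries outside the contrast were on neither side of the difference that chose these transcripts, although they entered the filter, the scaling and the estimate of the spread. In them the higher transcripts took 16.2% ± 0.485 of the counts at tefluthrin 2.3 µM, 11.2% ± 0.453 at acetochlor 7.8 µM and 10.3% ± 0.386 in control (SD, n = 3 each). The lower transcripts took 9.83% ± 0.333 at tefluthrin 2.3 µM, 14.8% ± 0.526 at acetochlor 7.8 µM and 15.9% ± 0.413 in control. In both lists the tefluthrin 2.3 µM libraries lay beside those at 60 nM, and the control libraries beside those at acetochlor 780 nM.

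**Figure D3:**
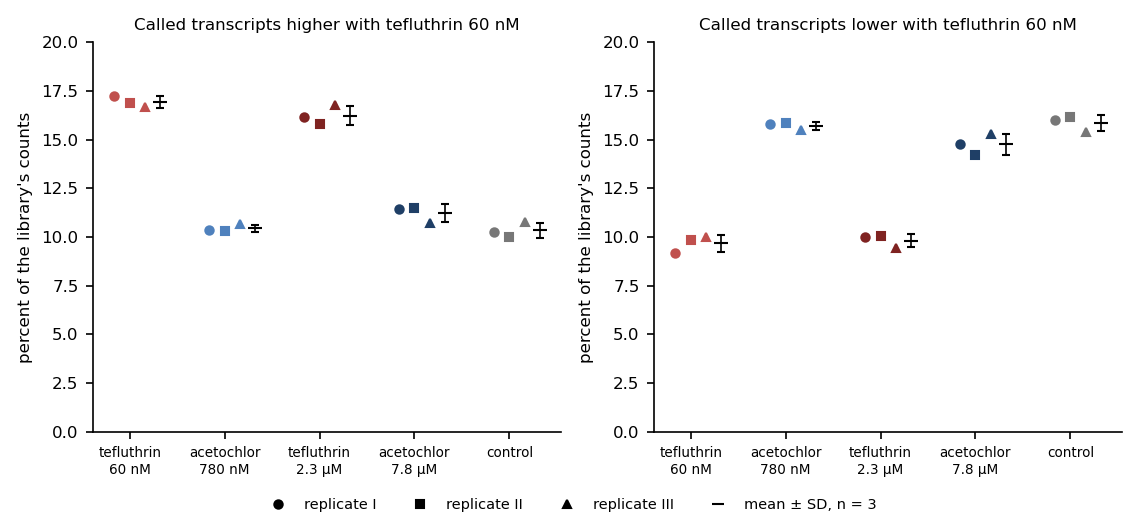
Percent of each library's counts (vertical axis) taken by the transcripts called higher (left) and lower (right) at tefluthrin 60 nM against acetochlor 780 nM, with 1 marker per library and the mean ± SD of each group of 3. Both tefluthrin groups lie at 15.8% to 17.3% on the left, and the acetochlor and control libraries at 10% to 11.5%.

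Next, the control mean was placed relative to the means of the low groups. On the log2 CPM scale the control mean was nearer to acetochlor 780 nM than to tefluthrin 60 nM in 5093 of the 5195 called transcripts (98%), against 71.6% of all transcripts tested that had a position. With 0 at the acetochlor mean and 1 at the tefluthrin mean, the median position of the control mean was -0.01, and the central 90% of called transcripts lay between -0.31 and 0.36. Control lay beyond acetochlor, away from tefluthrin, in 2775 called transcripts (53.4%), between the groups in 2416 and beyond tefluthrin in 4. Of the 35752 tested transcripts with a position, control lay beyond acetochlor in 45.4%, between the groups in 13536 and beyond tefluthrin in 5987. The central 90% of these positions lay between -3.02 and 3.38. A position is measured relative to the difference between the low groups, on which the called transcripts were chosen. The shares of called and of all tested transcripts are therefore not like for like. In 102 of the called transcripts control was nearer to tefluthrin, 62 of them higher and 40 lower with tefluthrin.

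The comparisons of each low group with control share libraries with this contrast and are given side by side. Among the called higher transcripts the median log2 fold change over control was 0.78 for tefluthrin 60 nM and 0.00 for acetochlor 780 nM. Among the called lower transcripts it was -0.60 for tefluthrin and -0.01 for acetochlor. Against control, edgeR called 5875 transcripts (16.4%) at tefluthrin 60 nM, 3036 higher (8.47%) and 2839 lower (7.92%), and 4.73% of those tested with a change of 1 or more in size. With upper quartile scaling that split was 2827 higher and 3126 lower. At acetochlor 780 nM edgeR called 0, limma voom called 0 and DESeq2 98. Unadjusted, 909 (2.53%) had an edgeR p-value under 0.05, fewer than that threshold gives where nothing differs. The count of 0 does not show that acetochlor 780 nM left every transcript unaltered.

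**Figure D4:**
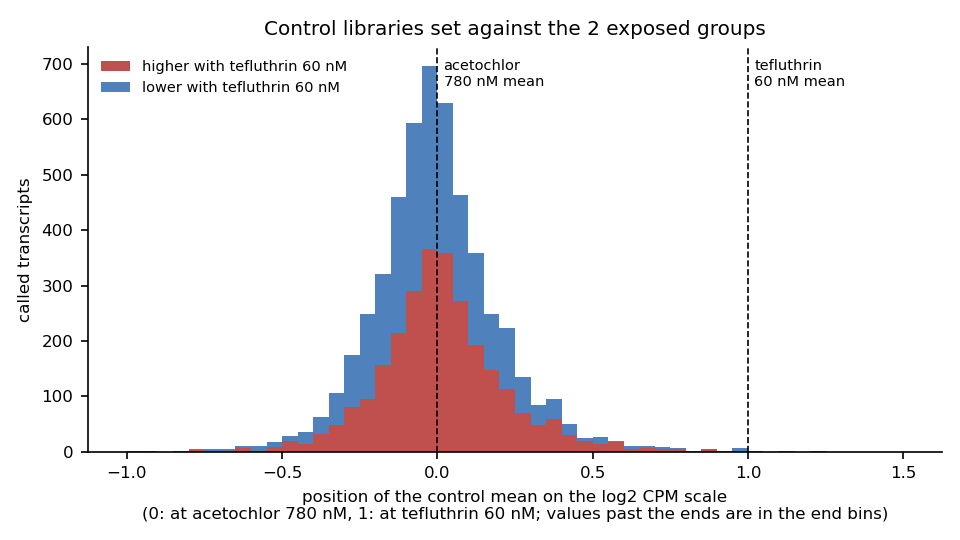
Number of called transcripts (vertical axis) by the position of the control mean between the 2 exposed groups (horizontal axis, 0 at the acetochlor 780 nM mean and 1 at the tefluthrin 60 nM mean). The bars centre on the acetochlor mean, with a median of -0.01, and few reach the tefluthrin mean.

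The compounds were also measured at their higher concentrations, in 6 libraries that share none with the low contrast and were fitted separately. Between tefluthrin 2.3 µM and acetochlor 7.8 µM edgeR called 8471 transcripts (23.6%), of which 4477 rose and 3994 fell with tefluthrin, and 7.99% of those tested changed by 1 or more on the log2 scale. Scaled by library totals alone, the median over all transcripts was -0.22 on the log2 scale, and the split was 2854 higher and 7004 lower. Among the 5195 low calls, whose spread was estimated from all 15 libraries, 2961 (57%) were called here too. In 2793 of them the direction was the same and in 168 it was opposite. The 2793 transcripts are 53.8% of the low list and 33% of the high list. With all 15 libraries in the high fit, as in the low one, 10192 transcripts were called, 4927 higher and 5265 lower. The shares given here use the separate fit.

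By direction, 56.1% of the low higher list was called higher at the high concentrations, where 12.5% of all transcripts were. Of the low lower list 51.2% was called lower, against 11.1% of all. The lists and all transcripts tested were not matched for abundance, with which the share called at the low concentrations grew. The median log2 change of the higher list was 0.59 at the high and 0.80 at the low concentrations, and that of the lower list was -0.48 and -0.60. Both were smaller in size at the high concentrations, in lists that had been chosen on the low difference. Among low calls of at least 1 on the log2 scale, 61.1% of the 1024 higher and 57.4% of the 526 lower transcripts were called in the same direction. Across the 5195 called transcripts, which are not independent of each other, the low and high differences had a Pearson coefficient of 0.665 and a Spearman coefficient of 0.77. Across all 35865 tested they were 0.17 and 0.319. Choosing transcripts by their low difference leaves out small differences and can itself raise such coefficients, so the called and all tested transcripts are not like for like.

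A second contrast set tefluthrin 2.3 µM against control, again without any library of the low contrast. Its tefluthrin libraries were the same as in the contrast between the compounds at the high concentrations. The results of these contrasts are therefore not independent of each other. The contrast with control called 9794 transcripts (27.3%), 8.99% of those tested with a change of 1 or more in size. Of the 5195 low calls, 3371 (64.9%) were called there in the same direction and 111 in the opposite one. The 3371 are 34.4% of the transcripts called in that contrast. The share was 65% of the low higher list, where 14.1% of all transcripts were called higher, and 64.8% of the low lower list, where 13.2% were called lower. These shares were not matched for abundance either. Here too the split of all calls, 5042 higher and 4752 lower, moved when library totals alone set the scale, to 3666 higher and 6652 lower around a median of -0.15.

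**Figure D5:**
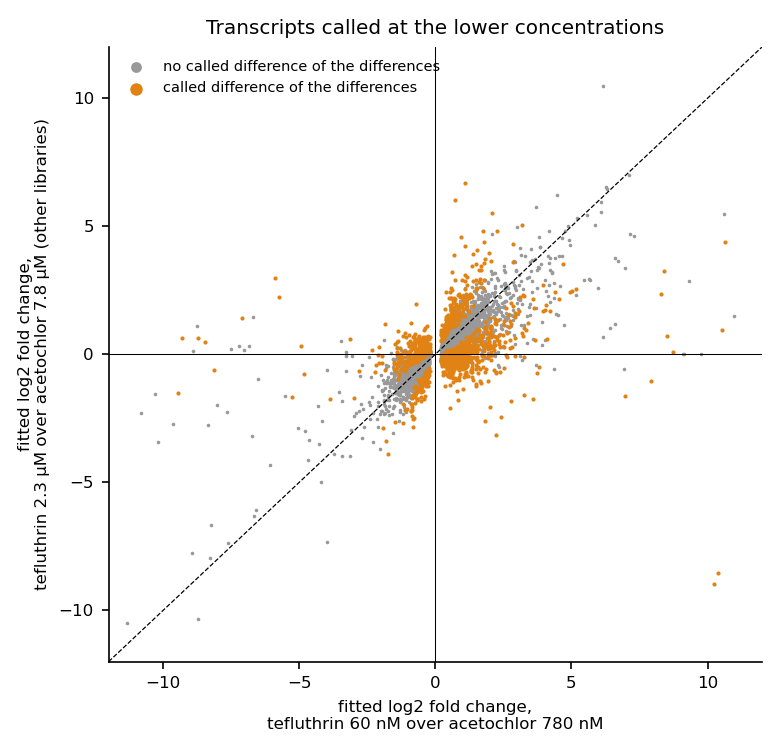
Fitted log2 fold change of tefluthrin 2.3 µM over acetochlor 7.8 µM (vertical axis) against that of tefluthrin 60 nM over acetochlor 780 nM (horizontal axis) for the 5195 transcripts called at the low concentrations, with the dashed line at equality. Most points lie in the lower left and upper right, and orange points are the 1267 whose low and high differences differed by the direct test.

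Whether the difference between the compounds itself changed with concentration was tested directly, as the low difference minus the high difference. It was called in 3735 of 35865 transcripts (10.4%), 1930 (5.38%) with a more positive difference at the low concentrations and 1805 (5.03%) with a more negative one; 3.96% of those tested reached 1 in size. Scaled by library totals alone, the median over all transcripts was 0.22 and the split was 3807 and 904, so that the direction of this test depends on the scaling. Without acetochlor 7.8 µM replicate II 2485 transcripts were called.

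The low calls were chosen on the low difference, which is 1 term of this test, and that choice favours a low difference larger than the high one. Their classes are therefore given as a description. For 3928 of the 5195 low calls (75.6%) no change of the difference was called. In 910 (17.5%) the low difference reached further in its own direction than the high one, 572 of them higher and 338 lower with tefluthrin 60 nM. The median log2 change of those 572 was 0.88 at the low and -0.12 at the high concentrations, and that of those 338 was -0.55 and 0.16. In 357 transcripts (6.87%) the high difference reached further. The median of the 243 higher ones among them was 0.60 at the low and 1.5 at the high concentrations, and that of the 114 lower ones was -0.48 and -1.17. Of the 4 transcripts named above, ENSDART00000170934.2 gave a difference of the differences of 0.35 and ENSDART00000138955.3 one of 0.71. Neither of these was called (edgeR adjusted p = 0.133 and 0.24). The values were -0.37 for ENSDART00000152299.2 and -2.12 for ENSDART00000129772.3. All 4 were named for their p-value or fold in the low contrast, so that these values too are a description.

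A few transcripts were present in one low group and at or near 0 in the other. With at least 30 counts in each tefluthrin 60 nM library and at most 3 in each acetochlor 780 nM library there were 25. Of these, 3 had whole-number estimates in all 6 libraries and 18 were called, where 14.5% of all transcripts tested were. The reverse pattern was shown by 20, of which 12 were called and 1 had whole-number estimates. These transcripts were picked for extreme values in the low groups. The whole pattern was met by 1 of the 25 and 0 of the 20 between tefluthrin 2.3 µM and acetochlor 7.8 µM, but single groups met it more often. Over all transcripts, 17 met the first pattern between those groups and 21 the reverse. Of the 25, 6 had 30 counts or more in each tefluthrin 2.3 µM library and 5 had 3 or fewer in each. Of the same 25, 10 had 3 counts or fewer in each acetochlor 7.8 µM library and 1 had 30 or more in each, and in control these numbers were 11 and 1. Of the 20, 2 had 3 counts or fewer in each tefluthrin 2.3 µM library and 4 had 30 or more in each. Of the same 20, 8 had 30 counts or more in each acetochlor 7.8 µM library and 2 had 3 or fewer in each, and in control these numbers were 8 and 1. Since nearly all have divided reads, their levels are uncertain.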

How the data were processed

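Poly(A) RNA of 15 pools of whole larvae was sequenced after Trizol and RNeasy extraction, per the labels' protocols. The submitters' processing notes name Salmon 1.6.0, FastQC, MultiQC and the build GRCz11; parameters and annotation release are not given in the sources used here. The deposited values are estimated counts per transcript, not scaled for depth. Before fitting they were rounded to integers, and edgeR's filterByExpr, given the groups, kept 35865 transcripts and at least 99.8% of each library's counts. Libraries were scaled with TMM, and 1 edgeR quasi-likelihood model took all 15 libraries with a coefficient per group and no other covariate. The 2 contrasts that share no library with the low contrast were each fitted on their own 6 libraries. Both hold the libraries of the higher tefluthrin concentration. Tests were two-sided with Benjamini-Hochberg adjustment. Software comprised DESeq2 1.42.0, limma 3.58.1 and edgeR 4.0.16 in R 4.3.3, with matplotlib 3.10.9 in Python 3.11.15. CPM are scaled by TMM; on the log2 scale 2 was the prior count. The standard error is the size of the log2 fold change divided by the root of F. Intervals from 3 counts cover counting error only. The model was tested on simulated data.

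The transcripts named in each direction were the called one with the smallest p-value and the called one with the largest fold among whole-number estimates with a mean count of at least 10 in both groups, each without overlap. The comparison, the rule and the lists were chosen with earlier results of these data known. Gene lists and counts per gene had been planned and were not used, since no table paired transcripts with genes. Alternatives were other scalings, filters and tests, a fit on the 6 libraries, a replicate block, whole-number estimates alone, and leaving out each library. Thinning to the smallest library, the alternatives for tefluthrin 2.3 µM against control, those for shared calls and the position of control, and some filters, call rules and blocks of the secondary comparisons were chosen after seeing the data.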

Additional observations from a re-analysis of the deposited data

Results flagged for a closer look

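A direct test found that the difference between the compounds at the low concentrations was not the same as at the high concentrations in 3735 transcripts, of which 1267 were among the 5195 called at the low concentrations and 2468 were not. The transcripts named above were chosen on the low difference, which favours a larger value there, so their p-values in this test are not independent of that choice. ENSDART00000152299.2 gave a difference of the differences of -0.37 (edgeR adjusted p = 0.016; 0.00606 to 0.201 over 21 alternatives). ENSDART00000129772.3 gave -2.12 (edgeR adjusted p = 0.0416; 0.00487 to 0.342 over 21 alternatives), and its call was kept in 9 of those. In 2 of the 5195 transcripts, singled out after their values were seen, fitted log2 changes of at least 3 in size had opposite signs at the low and high concentrations.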

How the results depend on the processing

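Over 17 settings the difference between tefluthrin 60 nM and acetochlor 780 nM kept its direction in all of the 5195 transcripts that each setting could test. These transcripts were called in the same libraries, which leaves little room for a change of direction, so this is no independent test. The 4 named transcripts, chosen in these libraries too, stayed called in each setting in which they were tested. The count moved by over 1.5 times with an absolute log2 change of at least 1 (1550), with only the 6 libraries compared (3115, of which 2942 were among the 5195) and with only whole-number estimates (2209 of fewer transcripts tested). It was 4597 with the replicate block, and the labels do not say whether same-numbered libraries belong together. Same-numbered libraries deviated from their group means with correlations of -0.03, -0.05 and -0.08. Those of tefluthrin 2.3 µM and acetochlor 7.8 µM did so with 0.01, -0.01 and -0.06. Taken over all transcripts, these correlations cannot show whether a clutch or batch was shared in some of them. Leaving out 1 library gave 3689 to 4756. The stricter fold rule left 1696 transcripts for tefluthrin 60 nM against control, 1420 for the difference of the differences, 2865 for the compounds at the high concentrations and 3226 for tefluthrin 2.3 µM against control. Acetochlor 780 nM against control gave 98 calls with DESeq2 and 0 to 3 when 1 library was left out: leaving out replicate I or replicate II of control gave 3, replicate I of acetochlor gave 2, and replicate II of acetochlor or replicate III of control gave 1. For the difference of the differences DESeq2 called 5736, and leaving out 1 library gave 2485 to 3889. The replicate block left 5107 calls between the compounds at the high concentrations. The causes of these shifts were not tested. ENSDART00000129772.3 lost its call at the high concentrations without tefluthrin 2.3 µM replicate I (edgeR adjusted p = 0.0532). Counts per gene could not be run. Below 1 CPM only large changes passed, and whether depth set that limit was not tested there.

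The share of low calls found in the same direction at the high concentrations ranged from 41.2% with the replicate block to 61% without tefluthrin 60 nM replicate I. That for tefluthrin 2.3 µM against control ranged from 60.1% with whole-number estimates to 71.7% without tefluthrin 60 nM replicate I. The share with control nearer to acetochlor ranged from 96.1% to 98.6%. The position of control was kept from the main scaling throughout, and no control library was left out. That last range therefore reflects only which transcripts each setting called.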
